A study of Mus with 5 samples.

Results

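The genes described here are those that the peak annotation names at 2 of the tallest BATF binding sites in mouse CD8 T cells, one on chromosome 11 inside Gosr1 and one on chromosome 17 in the Trem cluster. There are 9 of them, Gosr1, Trem1, Trem2, Treml1, Treml2, Treml4, Apobec2, Oard1 and Nfya, out of 12769 gene names found in 4 peak lists. A peak was taken as theirs when its gene column held one of the 9 names. This gave 8 of 15812 BATF peaks in the control, 7 of 9899 BATF peaks with retinoic acid (RA), 3 of 1172 RARα peaks in the control and 0 of 597 RARα peaks with RA. The genes were chosen by BATF fold enrichment, as those named at the highest BATF peaks of chromosomes 11 and 17 in these same lists, so BATF strength is given below as a description with no test. The rule that picks the genes uses no RARα value, although results of both factors were known when it was written.

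The study asked where RARα, a nuclear receptor that binds RA, and BATF sit on the chromatin of CD8 T cells, and whether RA changes this. Naive CD8 T cells from the spleen of WT mice were activated through CD3 and CD28 with IL-2 for 24 h, rested for 24 h in IL-2 at 100 U/ml, and kept for 1 h either without RA (control) or with 50 nM RA. Chromatin immunoprecipitation followed by sequencing (ChIP-seq) was done with an antibody to RARα, an antibody to BATF, or normal rabbit IgG. The treatment fields of the labels name other interleukins, from IL-7 to IL-10, where the growth protocol names IL-2, and whether the IgG cells received RA is not stated. Each list came from 2 pooled ChIP files set against 1 IgG file, and whether those files were separate cultures is not stated. With 1 list per condition there is no spread between replicates, and the conditions were compared without a test. A peak list holds no expression values, so the labelled cell type was not checked against markers. The BATF pools held 23110180 fragments in the control and 16424269 with RA. The IgG file held 11410673.

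BATF is a basic leucine zipper protein of the AP-1 family. It binds DNA as a dimer with JUN proteins, often beside IRF4, and is needed for effector differentiation of CD8 T cells. Many of its sites lie between genes or in introns, away from promoters. The Trem cluster encodes cell surface receptors of the immunoglobulin family that are best known from myeloid cells and platelets and not from T cells. Several of them signal through the adaptor DAP12, which is encoded by Tyrobp.

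At the Trem cluster the annotation named 8 of the 9 genes, which lie, with Trem3 and B430306N03Rik among them, over 200016 bp of chromosome 17, from 48232713 at Trem1 to 48432728 at Apobec2 (mm10). The tall site lay between genes at chr17:48332140-48333345 in the control and at chr17:48332271-48333305 with RA. The peak file places it in RLTR19-int, an internal sequence of an ERVK endogenous retrovirus. Its summit held 357 fragments in the control and 233 with RA, and its fold enrichment, that is the height of the peak over the local level of IgG with 1 added to each, was 58.9 in the control and 60.3 with RA. By fold it ranked 2 of all BATF control peaks and 3 of all BATF peaks with RA.

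The gene closest to that site was none of the 9. B430306N03Rik, also called Treml6 and itself a Trem family gene, ended 5629 bp from the control peak. Trem2, a receptor for lipids on macrophages and microglia, lay 13056 bp away on the other side. Treml2 lay 19606 bp away and Treml1, a receptor stored in platelet granules, 26571 bp away. Nfya, which encodes the DNA-binding subunit of the CCAAT-box factor NF-Y, lay 53540 bp away and Treml4 56533 bp away. The most distant were Oard1, an enzyme that removes ADP-ribose from proteins, at 76612 bp, Trem1, a receptor that amplifies inflammation in neutrophils and monocytes, at 85213 bp, and Apobec2, a member of the AID/APOBEC deaminase family known from muscle, at 85886 bp. All 8 genes were named at this 1 peak, which gives them the same top fold. It is therefore a property of the site and not of each gene.

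**Figure D1:**
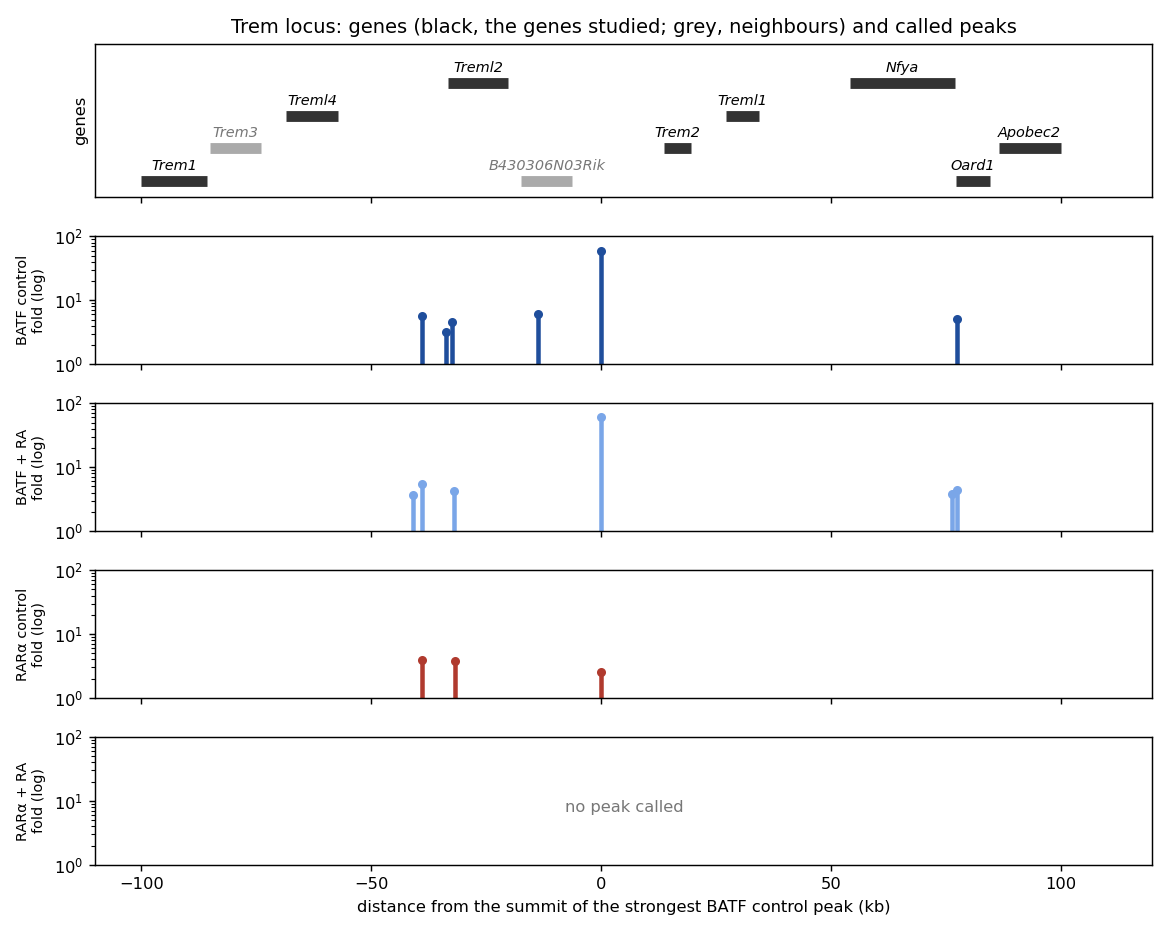
Genes and called peaks around the tall BATF site of the Trem cluster, with the distance from its control summit in kb on the horizontal axis and fold enrichment over IgG on a log axis for each of the 4 lists; each stem is 1 called peak at its summit. The tall BATF peak stands alone at 58.9 (control) and 60.3 (RA), the other BATF peaks reach at most 6.14, and RARα peaks occur only in the control.

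At Gosr1 the tall site lay inside the gene. Gosr1 encodes a Golgi SNARE, a protein that helps vesicles fuse between the endoplasmic reticulum and the Golgi. It spans 76726602 to 76763578 on chromosome 11. The BATF peak was at chr11:76733909-76736317 in the control and at chr11:76734265-76735081 with RA. The file classes it as exon, while its detailed annotation reads intron 7 of 8 of a Gosr1 transcript. Its summit held 330 fragments in the control and 248 with RA, and its fold was 54.5 and 64.2. By fold it ranked 3 in the control list and 1 with RA. Both neighbouring protein-coding genes were far from the peak, with Trarg1 35245 bp and Cpd 40891 bp away. Neither symbol was found at a BATF peak, but older names of these genes were not searched.

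**Figure D2:**
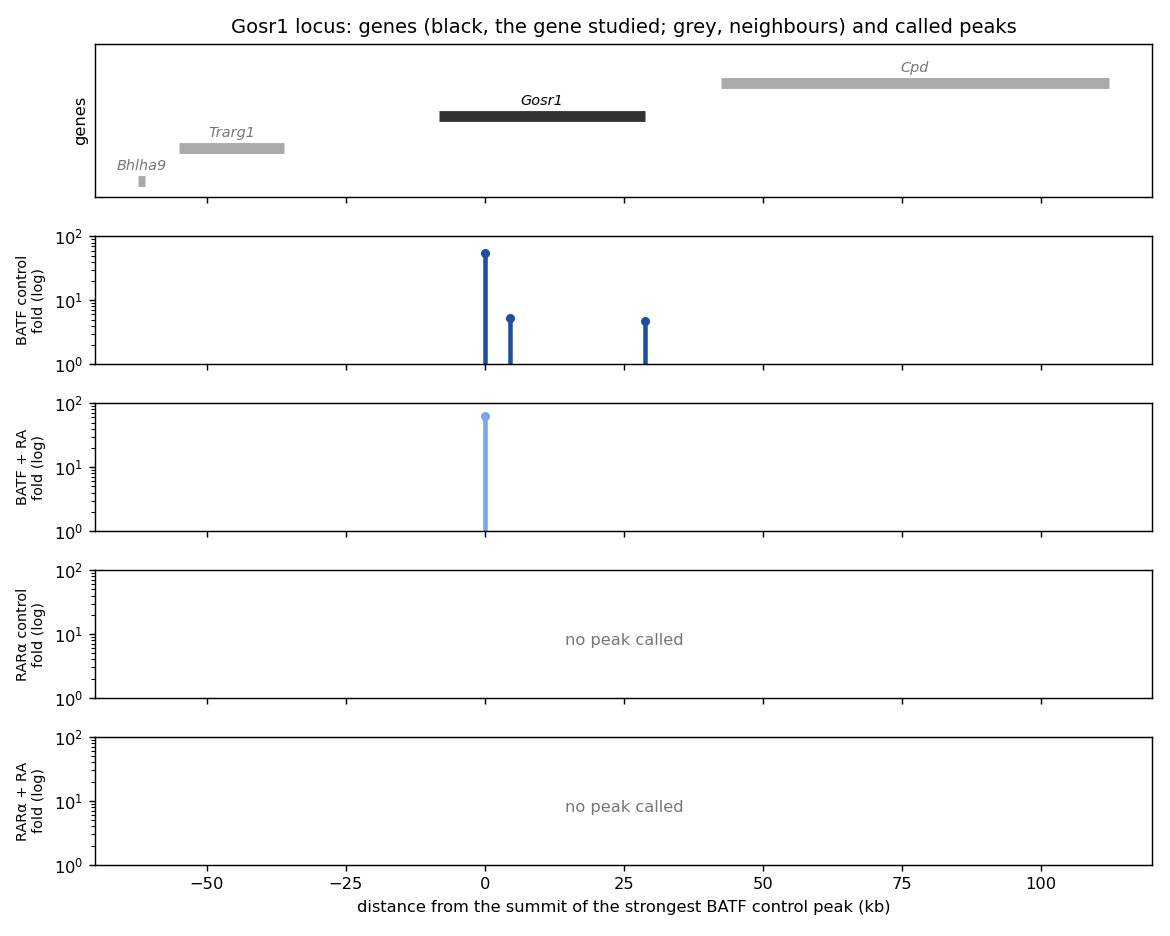
Genes and called peaks around the tall BATF site inside Gosr1, with the distance from its control summit in kb on the horizontal axis and fold enrichment over IgG on a log axis for each of the 4 lists; each stem is 1 called peak at its summit. There are 3 BATF peaks in the control, 1 with RA at a fold of 64.2, and no RARα peak in either list.

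The name of strongest sites holds per chromosome. On chromosome 11 the next BATF control peak by fold, at Grap and Slc5a10, had 40.5, and on chromosome 17 the next one, near Zdhhc14 and Snx9, had 51.2. With RA the next peaks had 42.6 on chromosome 11 and 37.2 on chromosome 17. Over the genome, the highest BATF control peak was on chromosome 10 with a fold of 61.2 and no gene named, and with RA a peak in an intron of Nfkb1 stood between the Gosr1 and Trem peaks with 61.9. By fragments at the summit, the Trem and Gosr1 peaks ranked 7 and 10 in the control list and 12 and 8 with RA.

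The remaining 11 BATF peaks of the 9 genes had folds from 3.14 to 5.68, and 9 of them lay below the median of their own list, which was 5.40 in the control and 5.29 with RA. At Gosr1 these were a peak in intron 6 with 24 fragments and a fold of 5.37, and a peak at the promoter with 23 fragments and a fold of 4.74, both in the control only. At Treml2, a receptor also reported on lymphocytes, there were 2 promoter peaks in the control, with folds of 3.14 and 4.57, and 1 with RA, with 4.22. The control peak of 3.14 ranked 15100 in its list and stood on the highest IgG level of all these peaks. That level was 3.50 times the lowest under any peak of the BATF control list. Upstream in the same interval an intergenic peak in a B3 element, a SINE of the B2 class, had a fold of 5.68 in the control and 5.41 with RA, and a further intergenic peak beside it, with 13 fragments, was called with RA only. The shared promoter region of Nfya and Oard1 carried 1 wide control peak of 2505 bp, with a fold of 5.05, and 2 narrower peaks with RA, with 3.87 and 4.44.

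**Figure D3:**
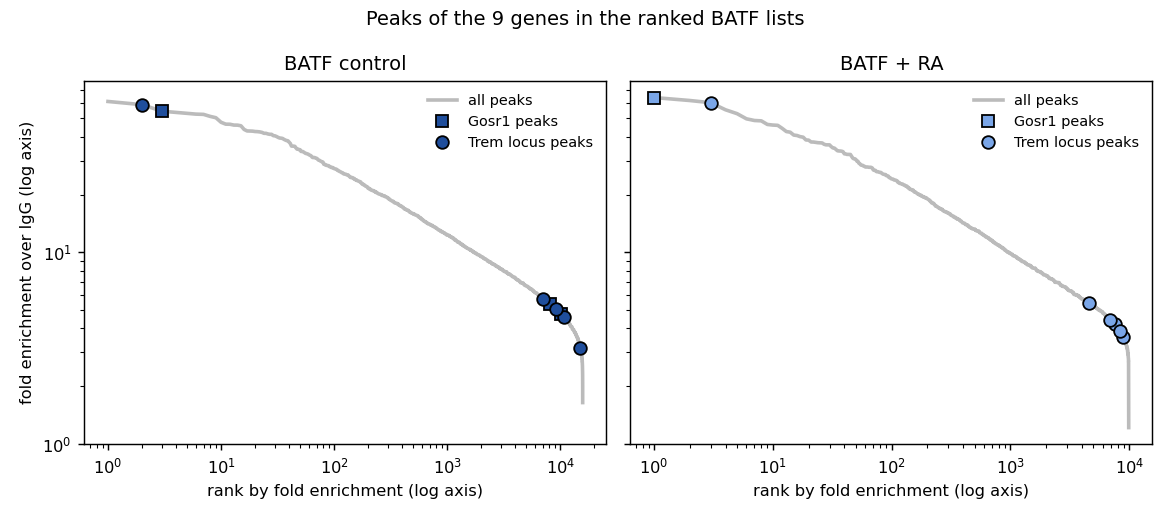
All BATF peaks of each list ranked by fold enrichment (grey line, both axes log) with the peaks of the 9 genes marked, squares for Gosr1 and circles for the Trem locus. In each list 1 peak per locus lies among the first 3 and the others lie far down the ranking, at folds of 3.14 to 5.68.

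Not every gene named has a peak of its own. A BATF peak lay within 10 kb of 5 of the 9 genes in the control and of 5 with RA, namely Gosr1, Treml2, Nfya, Oard1 and Apobec2, and touched the gene at 4 of them in each list. Of all protein-coding genes, 48.5% had a BATF control peak within 10 kb and 40.3% were touched by one, and with RA the shares were 38.6% and 29.5%. For Apobec2 the nearest control peak was 8031 bp away, at the Nfya and Oard1 promoters, and did not name it. Apobec2 was named only at the tall intergenic site, 85886 bp away in the control. Trem1, Trem2, Treml1 and Treml4 were likewise named at intergenic peaks alone, and their nearest control peaks were 46626, 13056, 26571 and 17946 bp away. One BATF control peak inside the cluster named none of the 9 genes. It lay in B430306N03Rik, had 23 fragments and a fold of 6.14, and had no counterpart with RA.

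The RA pool was shallower, so summit heights were also scaled to fragments per 1000000 fragments of the pool. At Gosr1 it was 14.3 in the control (95% exact Poisson interval 12.8 to 15.9) and 15.1 with RA (13.3 to 17.1), a ratio of RA to control of 1.06. At the Trem site it was 15.4 (13.9 to 17.1) and 14.2 (12.4 to 16.1), a ratio of 0.918. The intervals cover counting error only, not the spread between cultures, and since the sites were picked for their height in these lists, the ratios are a description. Over all 52 BATF control peaks of at least 200 fragments, each of which overlapped an RA peak, the median ratio was 0.962 (quartiles 0.893 and 1.02). The Trem ratio lay between these quartiles and the Gosr1 ratio above the upper one. By counting error alone the Gosr1 ratio has a 95% interval of 0.893 to 1.25, which takes in both quartiles. The 52 peaks were picked by control height only, while the tall sites were picked as peaks of both lists.

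The fold also divides by the IgG level, which was not the same in both lists. Brought to the depth of the IgG file, the level was 5.00 under the control summit at each of the tall sites and 4.00 under the RA summit, although the IgG file is the same. The control and RA summits lay 7 bp apart at Gosr1 and 22 bp apart at the Trem site. With the IgG level of the control summit used for both, an alternative chosen after seeing the data, the RA fold was 54.1 at Gosr1, against 54.5 in the control, and 50.9 at the Trem site, against 58.9.

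Counting all 9 genes, 7 of the 8 BATF control peaks had an RA peak within 5 kb (87.5%), against 69.9% of all BATF control peaks. The exception was the Gosr1 promoter peak, 28118 bp from the nearest RA peak. Overlap of at least 1 bp held for 5 of the 8 (62.5%, 30.6 to 86.3), against 54.4% of all. Both intervals take in the share of the whole list. In the other direction, all 7 RA peaks had a control peak within 5 kb, against 96.3%. The tall sites were chosen as peaks of both lists, so their pairing is given by the choice, and all peaks counted come from only 2 loci.

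Over the 7 pairs within 5 kb the fold was lower with RA in 3, against 66.9% of all such pairs. Only 5 of these pairs overlap. The intron 6 peak of Gosr1 and the weaker Treml2 promoter peak had a stronger neighbour as their nearest RA peak. Overlap does not make the summits the same: at Treml2 they lay 497 bp apart, so its ratios compare different summits. The wide control peak at Nfya and Oard1 was paired with only 1 of the RA peaks that it overlaps, with summits 88 bp apart. Among the 5 overlapping pairs the fold was lower with RA in 3, against 75.5% of all overlapping BATF pairs. The ratio of RA fold to control fold ranged from 0.879 at the Nfya and Oard1 promoters to 1.18 at Gosr1, with a median of 0.953, and over all overlapping pairs the median was 0.827 (quartiles 0.682 and 0.996). The 5 ratios of scaled height ranged from 0.907 to 1.28 with a median of 0.977, beside 0.838 over all, and were below 1 in 3 pairs, against 77.1%. For the 3 pairs of lower height the ratio was 1.28 at the intergenic site upstream of Treml2, 0.977 at Treml2 and 0.907 at Nfya and Oard1, each from summits of 20 to 45 fragments. All 5 peaks were narrower with RA, as were 87.7% of all overlapping pairs. The Gosr1 peak went from 2409 to 817 bp and the Trem peak from 1206 to 1035 bp, while the RA pool was also the smaller one; the part of depth in this was not tested.

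**Figure D4:**
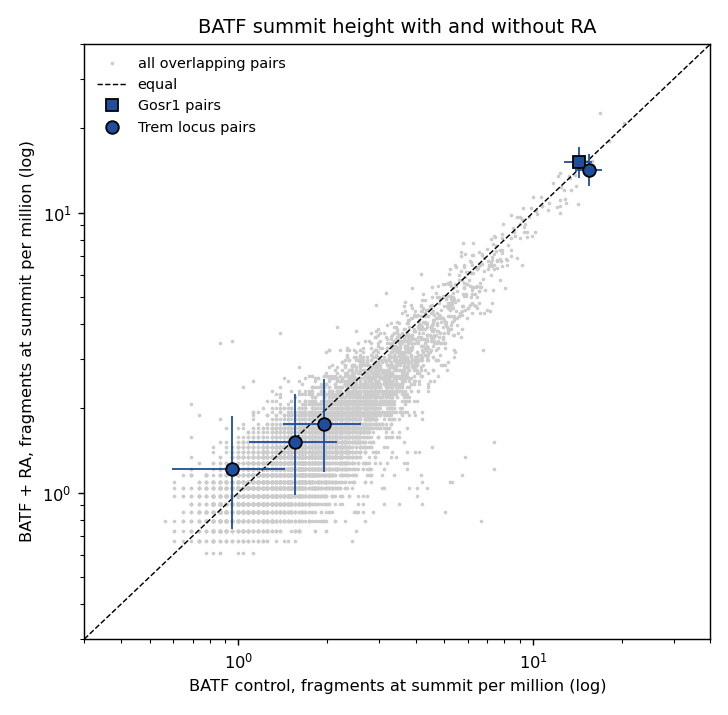
Fragments at the BATF summit per 1000000 fragments of the pool, control on the horizontal and RA on the vertical axis, both log; grey dots are all 8605 overlapping pairs, marked points are the 5 pairs at the 9 genes with exact 95% Poisson intervals, and the dashed line marks equal height. The Gosr1 pair (14.3 and 15.1) and the tall Trem pair (15.4 and 14.2) lie near the line at the top of the cloud, and the other 3 pairs lie lower, with wider intervals.

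RARα was found at the Trem cluster and not at Gosr1. In the control, 3 RARα peaks lay in the cluster, and each overlapped a BATF control peak and a BATF peak with RA. Over the whole list, 53.4% of the RARα control peaks overlapped a BATF control peak and 42.5% a BATF peak with RA, and within 5 kb the shares were 61.9% and 54.3%. Seen from BATF, RARα lay within 5 kb at 4 of the 8 control peaks (50.0%), against 7.16% of all BATF control peaks, and overlapped 3 of them, against 3.92%. Of the 7 BATF peaks with RA, 4 had a RARα peak of the control list within 5 kb, against 8.15%. All of these were in the Trem cluster and rest on the same 3 RARα peaks, so they are not independent.

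The RARα peak at the tall Trem site was among the weakest of its list. It covered chr17:48332647-48333004 with 14 fragments at the summit (95% Poisson interval 7.65 to 23.5) and a fold of 2.52, at or above 8.28% of the RARα control peaks. Its summit lay 2 bp from the BATF control summit, and its -log10 p of 3.68 passed the cutoff of the list, a p-value of 0.001, but its q-value did not pass 0.05. The other RARα peaks were higher. The one at the Treml2 promoter, chr17:48300043-48301206, had 33 fragments and a fold of 3.80, and the intergenic one upstream of it, chr17:48293419-48294051, had 22 fragments and a fold of 3.86, against a list median of 3.09. Of these 3 sites, the one with a BATF fold of 58.9 had the lowest RARα fold.

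At Gosr1 the nearest RARα control peak was 707190 bp away. Of the 10 BATF control peaks of highest fold, 2 had RARα within 5 kb in the control, the Trem site and a site near Ifnar2 and Il10rb. Among the first 100 it was 11 (11.0%, Wilson 95% interval 6.25 to 18.6), and among the first 1000 it was 115 (11.5%, 9.67 to 13.6).

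With RA, no RARα peak was called at any of the 9 genes. None of the 7 BATF peaks with RA had one within 5 kb (0%, Wilson upper bound 35.4%), against 1.22% of all BATF peaks with RA, and the nearest RARα peak was 2066594 bp from the Trem cluster and 756721 bp from the Gosr1 control peak. None of the 3 RARα control peaks had a RARα peak with RA within 5 kb, and over the list 10.2% did, or 8.45% by overlap. A site missing from a list is not shown to be unbound. At an IgG level like that of the tall Trem site, the lowest RARα peak with RA that was called had 13 fragments, beside the 14 of the control peak there. The intergenic control peak upstream of Treml2 stood on the same IgG level and had 22. At the level of the Treml2 promoter the lowest of only 7 peaks called with RA had 20, beside 33 in the control. The lowest -log10 p of those 7 was 4.12, above the cutoff, and the control list held a peak of 18 fragments at this level. The 20 is thus the lowest height seen and not the height needed for a call. The RARα pools were of nearly equal depth, 22655611 fragments in the control and 22475060 with RA.

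The tall Trem site was chosen for its BATF fold, so a high rank within its repeat family follows from the choice. Its peak was the highest of the BATF peaks in that family. In the BATF control list 8 peaks lay in RLTR19 subfamilies, and their folds ran from 2.96 to 58.9, the second being 18.3 on chromosome 4 near Rad23b. Of the 4 in RLTR19-int, the other three had folds from 2.96 to 7.09. With RA, 5 peaks lay in RLTR19 subfamilies, with 12.9 as the second highest fold. Of these, 2 were in RLTR19-int, the tall peak and one with a fold of 5.00. ERVK elements as a class held 95 BATF control peaks (0.601%), with a median fold of 5.31 and 19.7 as the second highest. Over LTR elements of any class, with 412 BATF control peaks, the second highest fold was 46.1. The IgG level of 5.00 under the tall peak was reached or passed by 47.0% of the BATF control peaks. How well reads can be placed in this repeat was not tested.

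Related genes were listed by role and looked up in the same way, beside 48.6% of protein-coding genes that were named at a BATF control peak and 38.2% with RA. The 2 further Trem family genes, Trem3 and B430306N03Rik, were named at the peaks of the cluster described above. Among 6 genes that carry TREM receptor signals, Tyrobp, Hcst, Syk, Zap70 and Plcg2 were named at a BATF control peak, and Hcst, Syk and Zap70 with RA. The highest was at the promoter of Zap70, a kinase of the T cell receptor, with a fold of 9.63 in the control and 7.28 with RA. Hcst, which encodes the adaptor DAP10, had a promoter peak of 7.56 in the control. Tyrobp was named at 2 BATF control peaks, and only the distance of the higher one was measured, 14204 bp from the gene. The 1 control peak named for Syk lay 72745 bp from that gene. Hcst and Zap70 each had 1 RARα control peak, against 7.18% of protein-coding genes, and none of the 6 had one with RA, against 3.19%.

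Among the other 7 Golgi SNARE genes, 5 were named at a BATF control peak and 4 with RA, all at promoters, with control folds from 3.29 at Vti1a to 9.65 at Stx5a. Gosr2, the partner gene of Gosr1 by name, had 7.24 in the control and 6.56 with RA. No Golgi SNARE gene of the list had a RARα peak in either list. Of the other 4 deaminase genes, 1 was named, Apobec3, a restriction factor for retroviruses, with BATF folds of 6.07 in the control and 5.46 with RA at different promoter peaks, and a RARα control peak of 5.01. Of the other 5 ADP-ribose hydrolase genes, Macrod1, Parg and Adprhl2 were named in both BATF lists, with control folds of 6.65, 3.23 and 4.83. Macrod2 was named in the RARα lists alone, with a fold of 3.09 in the control and 2.43 with RA at different intronic peaks. Each of these had only 11 fragments at the summit, where the lowest peak of either RARα list had 9. The other NF-Y subunit genes, Nfyb and Nfyc, were both named in both lists, with control folds of 4.35 and 2.90. The highest BATF fold at any of these further genes outside the Trem cluster was the 9.65 of Stx5a.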

How the data were processed

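Per the labels and file headers, the authors mapped paired-end reads to mm10 with Bowtie2 and, after removal of duplicates, ran the peak caller MACS 2.2.7.1 on 2 pooled ChIP files against 1 IgG file, at a p-value of 0.001 (RARα) or 1e-05 (BATF). The authors' pileup column is a signal that counts fragments at the summit, which the BATF control list holds scaled down; whole fragments were recovered to within 0.02 in 100% of peaks. The deposited fold enrichment is a ratio, (pileup + 1) over (IgG level + 1), from which the IgG level was recovered. Deposited p-values and q-values are on the -log10 scale, from the authors' peak caller.

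Peaks counted as near within 5 kb, after the methods, and were paired by nearest midpoint. Where an interval is given, it is a Wilson 95% interval for a share and an exact Poisson 95% interval for fragments. Both cover counting error only. Gene positions are from RefSeq for GRCm38.p6; at least 99.5% of gene names per list were matched. The genes, lists by role and tests were chosen with earlier results of these data known. Named were the 9 genes, genes at the same peaks and their neighbours, the 10 highest BATF peaks per list and the role lists. Overlap steps were tested on simulated data. No genome sequence was used, so the planned AP-1 motif count was not made. The work used pandas 2.3.3 and numpy 2.4.6 under Python 3.11.15, with scipy 1.17.1 for intervals and matplotlib 3.10.9 for plots.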

Additional observations from a re-analysis of the deposited data

How the results depend on the processing

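No paired analysis was possible because the files of each condition were pooled before peaks were called. Of 47 values recomputed, 38 held, 5 moved beyond their counting interval or by over 1.5 times, and 4 changed direction. Some of those that held could not have changed, since a count of 0 stays 0 under a stricter cutoff, a shorter distance or merging of peaks. A fold of at least 5 left 5 BATF control peaks, 3 BATF peaks with RA and 0 RARα control peaks at the 9 genes. Over the 7 pairs within 5 kb, 3 had a lower fold with RA and the median ratio was 1.02. With overlap of at least 1 bp this became 3 of 5 pairs and 0.953, and with the IgG level of the control summit for both lists 4 of 7 and 0.994. The latter also lowered the RA fold to 54.1 at Gosr1 and 50.9 at the Trem site. This setting was chosen after seeing the data. The overlap rule leaves out the 2 pairs whose nearest RA peak was another site. No RARα peak with RA lay within 10 kb of the 9 genes, the one setting that could have raised that count above 0. The motif count was not run. Counts at 8 or fewer peaks and summits of 13 to 45 fragments limit all but the tall sites.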

Other observations

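Among the 52 BATF control peaks of at least 200 fragments, the largest ratio of RA to control height, scaled to the fragments of each pool, 1.35, was at Nfkb1, which encodes the p105/p50 subunit of NF-κB and holds the BATF peak that ranks between the Gosr1 and Trem sites with RA. It lies in intron 3 of 24, at chr3:135665080-135666327 in the control with 390 fragments, a scaled height of 16.9 and a fold of 42.9, and at chr3:135665246-135666534 with RA with 373 fragments, a scaled height of 22.7 and a fold of 61.9. In contrast to the sites described above, a RARα peak was called there in both conditions, with a fold of 5.82 and 51 fragments in the control and 3.38 and 29 fragments with RA. The peak was singled out after its values were seen, and there is no replicate check.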
